A study of Mus musculus with 12 samples.

Results

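Neural stem cells of the mouse hippocampus that had received vesicles from passage 2 to passage 10 were set against cultures at passage 2, to see what differed from early cultures in spite of the vesicles. The comparison takes 8 of the 12 RNA libraries of the study, 4 of vesicle-treated passage 10 cultures (P10 EV) and 4 of passage 2 cultures (P2), chosen by their labels and by no measured value. All 34745 genes of the deposited table were considered, and the 16058 with enough reads were tested. Every culture came from wild type C57BL/6 hippocampus and was grown in DMEM/F12 medium with B27, EGF, bFGF and heparin. The P10 EV cultures were given small extracellular vesicles of embryonic stem cells (ESC-sEVs) over those passages. The 4 P10 PBS cultures got the same volume of phosphate-buffered saline, and the P2 cultures stand for the early state. P10 PBS values are given beside most genes chosen by a naming rule stated below, since they show the level reached without vesicles. Both late groups are compared with the same 4 P2 libraries. The labels give neither the animals' age nor whether the 4 replicates of a group were separate animals, so the tests measure the spread between these libraries, and no vesicle-treated culture was sampled at passage 2. The sample descriptions give the same-numbered libraries of the 3 groups a shared culture name, so the calls that ended in a fit with the replicate number as a block are given too.

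Neural stem cells divide under EGF and FGF2 and can give rise to neurons, astrocytes and oligodendrocytes. In serial culture they divide many times outside their niche, and regional identity genes, imprinted genes and glial genes are among those whose levels can drift with passage. Small extracellular vesicles are membrane particles released by cells that carry protein and RNA to other cells. The title of the study names SMAD proteins, the signal carriers of the TGF-beta and BMP receptors, as vesicle cargo.

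Levels below are CPM, read counts scaled to a common library total with TMM-adjusted library sizes, in the order of replicates 1 to 4, and fold changes are edgeR log2 fold changes with their standard errors. The marker sums and the Cldn5 and Cdh5 levels of this paragraph are CPM without the TMM adjustment. Libraries held 10736538 to 16807647 counts and 19698 to 20562 genes with a read. The neural stem cell marker Nes ranged over 719 to 825 CPM in P10 EV and 360.1 to 978 CPM in P2, and Sox2 over 179.6 to 215 CPM in P10 EV and 201 to 417 CPM in P2. Among 22 liver genes, Trf was at 23.3 to 144 CPM over the 12 libraries, without the TMM adjustment. All 22 liver genes had reads in P10 EV replicate 1, P10 PBS replicate 1 and P2 replicates 1 and 2, while 13 to 17 of them were at 0 counts in the other libraries. Their part in the results was not tested beyond leaving those libraries out. Replicates 1 and 2 of each group carried Xist and replicates 3 and 4 Y-linked transcripts, so the same number went with the same sex in each group. In a principal component analysis, component 1 (30.1% of the variance) placed the P10 EV libraries at -26.9 to -10.6 and P2 replicate 1 beside them at -27.5, with P2 replicates 2, 3 and 4 apart at 22.1, 86.5 and 52.8. The sex-linked transcripts of P2 replicate 1 went with its number, but whether it is the passage 2 culture its label says could not be checked further. The counts for gene lists below are also given without P2 replicate 1, a library singled out after its values were seen. Since it lay beside P10 EV on component 1, leaving it out can by itself widen the differences from P2, so those counts are a description. Among markers of other cells, the 13 of mature neurons summed to 73.2 to 78.4 CPM in P10 EV and 83.9 to 96.0 CPM in P2, and the 14 of meningeal fibroblasts to 44.4 to 85.3 CPM in P10 EV and 22.6 to 141 CPM in P2. Those of endothelial cells and pericytes summed to 14.3 to 18.1 CPM in P10 EV and 9.21 to 47.2 CPM in P2, with the endothelial genes Cldn5 and Cdh5 at or under 0.2 CPM in every one of these 8 libraries. Microglial markers summed to 18.4 to 22.9 CPM in P10 EV and 15.8 to 43.4 CPM in P2. Markers of ependymal and choroid plexus cells summed to 29.7 to 36.9 CPM in P10 EV and 29.4 to 46.7 CPM in P2, and those of embryonic stem cells to 18.0 to 46.5 CPM in P10 EV and 20.6 to 57.1 CPM in P2. In bulk RNA, fewer cells of a type and less RNA per cell cannot be told apart.

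Against P2, 94 genes differed in P10 EV at an adjusted p under 0.05 (edgeR quasi-likelihood test, Benjamini-Hochberg over all genes tested), which is 0.585% of the genes tested. Of these, 28 rose (0.174%) and 66 fell (0.411%), the shares to set beside the list counts of this test below. Lists and their members were chosen with earlier results of these data known, so the list counts are a description and no test of a list. Over all genes tested, 7841 had a log2 fold change above 0 and 8217 below 0. The fold change was at least 2 for 18 of the genes that rose and for 58 of those that fell, and the median log2 fold change over all genes tested was -0.01. The 4 libraries of each group stood apart, with no overlap, for 93 of the 94 called genes; Gsg1l was the exception, with P2 replicate 1 at 0.713 CPM, inside the P10 EV range of 0.420 to 0.946 CPM. Over all genes tested, 1448 (9.02%) had groups apart in this way, 748 with P10 EV above and 700 with P10 EV below. For the 66 genes that fell, P2 replicate 1 was the lowest P2 library in 38, and for the 28 that rose it was the highest in 10. P10 PBS differed from the same P2 libraries in 149 genes (0.928%), 61 that rose and 88 that fell. The direct test of P10 EV against P10 PBS, which is also the test of whether the 2 late groups differed from P2 by unequal amounts, called 0 genes (0%) at a smallest adjusted p of 0.257. In that test 1163 genes had an unadjusted p under 0.05, and DESeq2 called 67. Of the 28 genes that rose against P2, 7 had every P10 EV library above every P10 PBS library (3.74% of all genes tested) and 0 the reverse. Of the 66 that fell, 18 had P10 EV below P10 PBS (3.84% of all genes tested) and 2, Grb10 and Ndn, had it above. The P10 EV libraries that chose these genes also enter these counts, so they are a description.

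The number of calls depended on single libraries. Without P2 replicate 1, 2793 genes were called (17.4% of those tested, 1382 or 8.61% that rose and 1411 or 8.79% that fell), and all 94 genes were among them. Without any of the 4 libraries that held liver transcripts, 3280 were called (1686 or 10.5% that rose and 1594 or 9.93% that fell), again with all 94 among them. Leaving out another library mostly lowered the count: 11, 8, 20 and 7 of the 94 genes kept their call without P10 EV replicates 1, 2, 3 and 4, and 72, 26 and 9 without P2 replicates 2, 3 and 4. Genes called in every setting tried were Pmepa1, Spats2l, Sez6, Slit1, Acot11 and Fbln2, 6 of the 94. No fold change of the 94 genes turned its direction in any setting.

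With the replicate number as a block, edgeR called 67 genes, 19 that rose (0.118%) and 48 that fell (0.299%); 45 of the 94 kept their call, 49 lost it and 22 other genes gained one. Of the 40 called genes that the naming rule chose, 17 lost their call in that fit, and each loss is given beside the gene. The block called 0 genes in P10 EV against P10 PBS (1165 at an unadjusted p under 0.05) and 64 rises and 103 falls in P10 PBS against P2. Among those 40 genes, the block ended the call of P10 PBS against P2 for Iqgap2 (adjusted p = 0.0796), Dhh (0.0577), Lhx2 (0.061) and Dpysl3 (0.052), and gave one for Cd82 (0.0261), Clec3b (0.0426) and Olfml2a (0.0465).

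**Figure D1:**
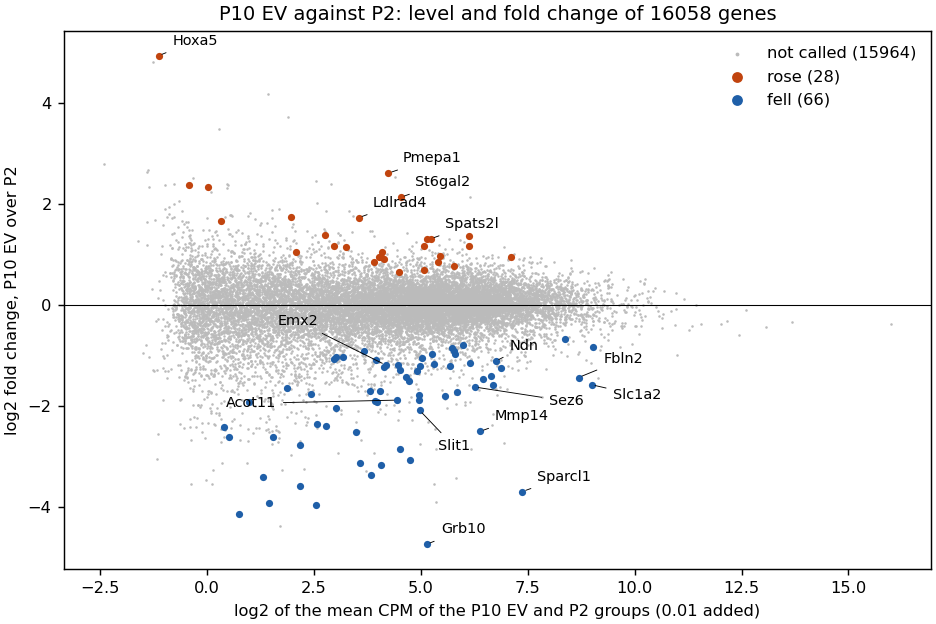
Mean level (x axis, log2 CPM over both groups) against the log2 fold change of P10 EV over P2 (y axis) for the 16058 genes tested. Red points are the 28 genes that rose, blue points the 66 that fell and grey points the genes not called; most falls lie further from 0 than most rises.

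**Figure D2:**
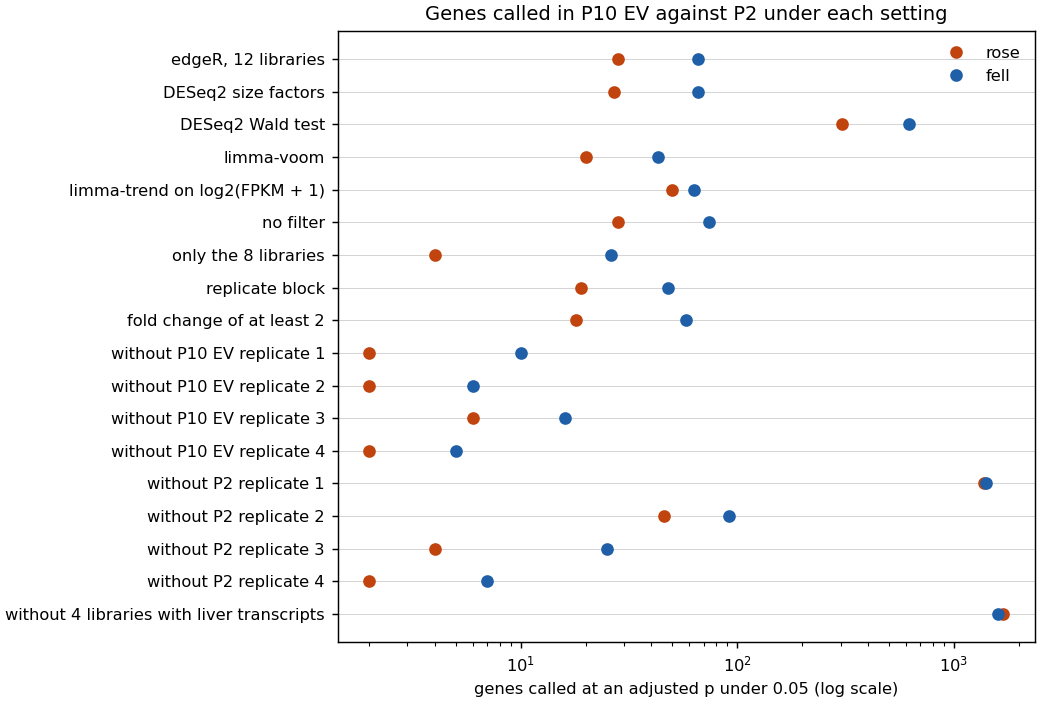
Number of genes called in P10 EV against P2 (x axis, log scale) under each setting (rows), red for genes that rose and blue for genes that fell. The counts of 28 and 66 of the 12-library edgeR test grew to 1382 and 1411 without P2 replicate 1 and shrank to 2 and 5 without P10 EV replicate 4.

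Imprinted genes, which are read from 1 parental copy under the control of DNA methylation, held some of the deepest falls. Of 30 tested, 3 fell, beside 0.411% of all genes tested, and 0 rose. The median log2 fold change was -0.15 beside -0.01 over all genes tested. The 3 were Grb10, which encodes an adaptor that restrains insulin and IGF receptor signalling, Ndn, which encodes the MAGE protein necdin and restrains growth in neural cells, and Magel2, a MAGE gene beside Ndn in the region of the mouse genome that corresponds to the Prader-Willi locus. Since methylation of CG pairs marks imprinted genes, the 250 bases before the start of each are shown, 5′ to 3′ on the gene's strand, from RefSeq on GRCm38.p6, with every CG pair in capitals. The windows are chr11:12037421-12037670 on the minus strand for Grb10, chr7:62348027-62348276 on the plus strand for Ndn and chr7:62376729-62376978 on the plus strand for Magel2.
Grb10: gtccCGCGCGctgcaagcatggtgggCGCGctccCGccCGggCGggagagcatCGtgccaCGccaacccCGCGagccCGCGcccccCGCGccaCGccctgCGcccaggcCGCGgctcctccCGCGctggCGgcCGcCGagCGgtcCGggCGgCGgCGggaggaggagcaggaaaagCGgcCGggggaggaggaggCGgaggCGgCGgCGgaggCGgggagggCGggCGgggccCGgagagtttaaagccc
Ndn: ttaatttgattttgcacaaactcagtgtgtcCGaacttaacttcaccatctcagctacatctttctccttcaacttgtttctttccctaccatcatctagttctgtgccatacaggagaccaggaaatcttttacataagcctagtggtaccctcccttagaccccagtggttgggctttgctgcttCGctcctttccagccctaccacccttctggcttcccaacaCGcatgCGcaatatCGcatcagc
Magel2: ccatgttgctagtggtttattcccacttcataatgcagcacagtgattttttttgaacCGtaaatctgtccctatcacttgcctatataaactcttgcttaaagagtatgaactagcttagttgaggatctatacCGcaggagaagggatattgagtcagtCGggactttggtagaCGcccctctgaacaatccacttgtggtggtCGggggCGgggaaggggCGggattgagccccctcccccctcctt
The Grb10 window, taken before the first of 2 starts that RefSeq lists, held 40 CG pairs, and 2.53% of the 10665 such windows among the genes tested held at least as many. The Ndn window held 5 CG pairs and the Magel2 window 7, with at least as many in 88.5% and 82.8% of those windows; the median was 16. A CG count describes the sequence and says nothing of its methylation, which was not measured here.

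Grb10 (ENSMUSG00000020176, chromosome 11) was at 0.946, 1.01, 4.03 and 4.10 CPM in P10 EV, against 65, 8.91, 89.3 and 108 CPM in P2. Every P10 EV library was below every P2 library, with replicates 3 and 4 about level with each other and above replicates 1 and 2. The log2 fold change was -4.75 ± 0.70 (adjusted p = 0.0162). In P10 PBS the level was still lower, at 0.613, 0.367, 0.374 and 0.799 CPM, a log2 fold change of -6.91 ± 0.82 against P2 (adjusted p = 0.00327). The difference of P10 EV from P10 PBS, 2.17 ± 0.84 on the log2 scale, did not pass the test (adjusted p = 0.631). Ndn (chromosome 7) was at 54.9, 54.2, 83.1 and 79.4 CPM in P10 EV, against 154, 132, 139 and 164 CPM in P2, a log2 fold change of -1.12 ± 0.16 (adjusted p = 0.0126). Its 4 P10 EV libraries lay between those of P10 PBS, at 33.2, 35.3, 39.8 and 38.7 CPM, and those of P2, without overlap on either side. For Ndn the log2 fold change of P10 PBS against P2 was -2.0 ± 0.16 (adjusted p = 0.000237). Even so, the P10 EV and P10 PBS levels of Ndn did not differ past the threshold (log2 difference 0.89 ± 0.16, adjusted p = 0.269). Magel2 (chromosome 7) was at 0.0591, 0.336, 0.658 and 0.310 CPM in P10 EV, against 3.21, 1.46, 4.14 and 11.5 CPM in P2 (log2 fold change -3.92 ± 0.76, adjusted p = 0.0425). Magel2 stood at 0.136, 0, 0.281 and 0 CPM in P10 PBS, giving log2 fold changes of -5.53 ± 0.90 for P10 PBS against P2 (adjusted p = 0.0153) and 1.61 ± 1.09 for P10 EV over P10 PBS (adjusted p = 0.794). These are few reads, and in P10 PBS Magel2 had 0 reads in replicates 2 and 4. Grb10 lost its call without P10 EV replicates 1, 2 or 4 or P2 replicate 4 (adjusted p up to 0.0648), and with limma-voom or only the 8 libraries (up to 0.0696). Ndn lost it without P10 EV replicates 1 or 2 or P2 replicate 4 (adjusted p up to 0.0607). Magel2 lost it without P10 EV replicates 1, 2, 3 or 4 or P2 replicates 3 or 4 (adjusted p up to 0.142), and with limma-voom, limma-trend or only the 8 libraries (up to 0.0853). For Magel2 the replicate block ended the call too (adjusted p = 0.0574). Among the 30, 10 fell and 4 rose without P2 replicate 1, beside 8.79% and 8.61% of all genes tested. With the replicate block 2 fell. P10 PBS against P2 had 5 falls among the 30 (median -0.28), beside 88 among all 16058 genes tested.

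Dorsal identity of the forebrain is set by transcription factors, and 2 of these genes fell. Of 11 tested members of that list, 2 fell, beside 0.411% of all genes tested, and 0 rose, with a median log2 fold change of -0.29. Emx2, a homeobox gene needed for growth of the hippocampus, was at 12.1, 9.32, 11.8 and 10.8 CPM in P10 EV, against 24.9, 22.4, 28.9 and 24.3 CPM in P2 (log2 fold change -1.19 ± 0.18, adjusted p = 0.0162). Emx2 stood at 7.63, 10.6, 6.83 and 10.8 CPM in P10 PBS, giving log2 fold changes of -1.48 ± 0.18 for P10 PBS against P2 (adjusted p = 0.00329) and 0.29 ± 0.18 for P10 EV over P10 PBS (adjusted p = 0.777). All P10 EV libraries were near or under 12 CPM and all P2 libraries above 22 CPM. Lhx2, a LIM homeobox gene that specifies the cortex and hippocampus, was at 24.9, 23.5, 29.6 and 25.2 CPM in P10 EV, against 55.1, 49.7, 60.1 and 38.3 CPM in P2 (log2 fold change -0.98 ± 0.18, adjusted p = 0.035). Lhx2 stood at 33.2, 27.2, 18.8 and 27.1 CPM in P10 PBS, giving log2 fold changes of -0.93 ± 0.18 for P10 PBS against P2 (adjusted p = 0.0304) and -0.04 ± 0.18 for P10 EV over P10 PBS (adjusted p = 0.974). Reads of Emx2 cannot be told apart from those of the overlapping Emx2os, since the strand was not stated to have been used. Of the ventral forebrain list, 0 of 11 members were called (median -0.39); Meis2, one of its most expressed members, was at 104 ± 18 CPM in P10 EV, 80.6 ± 13.1 CPM in P10 PBS and 136 ± 29.9 CPM in P2 (SD, n = 4 each). Emx2 lost its call without P10 EV replicates 1, 2 or 4 or P2 replicate 4 (adjusted p up to 0.0847). Lhx2 lost it without P10 EV replicates 1, 2, 3 or 4 or P2 replicates 3 or 4 (adjusted p up to 0.133), and with only the 8 libraries (up to 0.0597). For Lhx2 the replicate block ended the call too (adjusted p = 0.0745). In the dorsal list 3 of 11 fell without P2 replicate 1 (8.79% of all genes) and 1 fell with the replicate block, while in the ventral list none of the 11 was called in either fit. P10 PBS against P2 had 2 falls in the dorsal list (median 0.04), beside 88 among all 16058 genes tested. The ventral list had 0 calls there (median -0.17).

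Genes that pattern the midbrain, hindbrain and spinal cord mostly lay above 0, with a single call. Of 17 tested, 14 were above 0, 9 had groups apart with P10 EV above (9.02% of all genes were apart in either direction), and the median log2 fold change was 1.60; 1 passed the test. That gene was Hoxa5, a homeobox gene of posterior identity, with 50 counts over the 4 P10 EV libraries, 63 over the P10 PBS libraries and 1 over the P2 libraries. As a ratio of reads per library size, P10 EV was 47.0 times P2, with an exact 95% interval of 8.06 to 1893 that covers counting error only (adjusted p = 0.0163). Hoxa5 stood at 2.04, 1.01, 1.40 and 0.508 CPM in P10 PBS (adjusted p = 0.00616 against P2), and the log2 difference of P10 EV from P10 PBS was -0.50 ± 0.43 (adjusted p = 0.848). The Hoxa5 level was 0.946, 1.01, 0.740 and 0.807 CPM in P10 EV, against 0, 0.0731, 0 and 0 CPM in P2, so that both groups were low. The 39 Hox genes of the table together had 37 to 58 counts in each P10 EV library, 39 to 121 in each P10 PBS library and 2 to 6 in each P2 library. Chosen here after their values were seen, En2, a midbrain-hindbrain homeobox gene, averaged 9.92 CPM in P10 EV and 1.79 CPM in P2 (adjusted p = 0.0870), and Cnpy1 averaged 12.6 CPM in P10 EV and 2.38 CPM in P2 (adjusted p = 0.0566); neither passed. Hoxa5 lost its call without P10 EV replicates 1, 2 or 4 or P2 replicates 3 or 4 (adjusted p up to 0.0675). Leaving out P2 replicate 1, 5 of the 17 rose, beside 8.61% of all genes, and 1 fell, beside 8.79%. P10 PBS against P2 had 3 rises among the 17 and a median of 2.09, beside 61 rises among all 16058 genes tested.

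**Figure D3:**
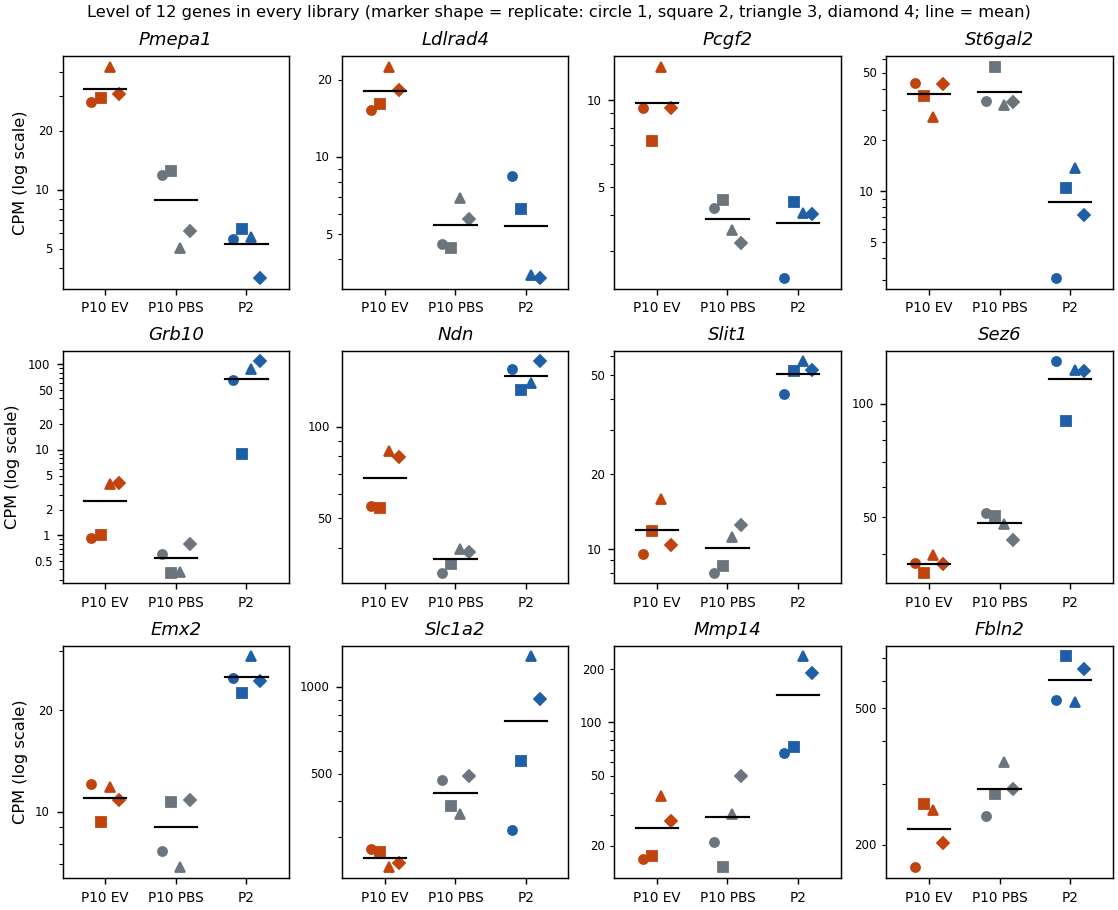
CPM on a log axis of 12 genes in each library of P10 EV (red), P10 PBS (grey) and P2 (blue); marker shape gives the replicate and the black line the mean of 4. For Pmepa1, Ldlrad4 and Pcgf2 the P10 EV libraries lie above both other groups. For the falling genes P10 PBS also lies below P2, apart from Slc1a2, whose P10 PBS libraries all lie within the range of P2.

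Neuronal and axonal genes held 2 of the 6 genes that were called in every setting, Sez6 and Slit1. Sez6, a neuronal membrane protein that shapes dendrites, was at 37.8, 35.6, 39.5 and 37.5 CPM in P10 EV, against 129.7, 90.2, 123 and 122 CPM in P2 (log2 fold change -1.63 ± 0.13, adjusted p = 0.000166). The P10 EV libraries were within 4 CPM of each other and the adjusted p was the smallest of the comparison. P10 PBS stood at 51.4, 50.2, 47.8 and 43.5 CPM, with no library as low as P10 EV, but the difference did not pass the test (log2 -0.36 ± 0.12, adjusted p = 0.596). For Sez6 the log2 fold change of P10 PBS against P2 was -1.27 ± 0.13 (adjusted p = 0.000918). Slit1, a secreted repellent of axons and migrating neurons, was at 9.58, 11.8, 16 and 10.4 CPM in P10 EV, against 42, 51.9, 56.8 and 52.3 CPM in P2 (log2 fold change -2.09 ± 0.20, adjusted p = 0.00081). Slit1 was the 1 member of 56 tested axon guidance and adhesion genes to be called, and the median of that list was -0.01, as over all genes. P10 PBS held Slit1 at 8.04, 8.54, 11.2 and 12.5 CPM, overlapping P10 EV. For Slit1 the log2 fold change of P10 PBS against P2 was -2.33 ± 0.20 (adjusted p = 0.00026), and that of P10 EV over P10 PBS was 0.24 ± 0.20 (adjusted p = 0.832). Thy1, a surface glycoprotein of neurons, was at 4.79, 5.54, 7.15 and 4.84 CPM in P10 EV, against 19.4, 43.3, 62.3 and 36.4 CPM in P2 (log2 fold change -2.86 ± 0.43, adjusted p = 0.0162). Thy1 stood at 6.47, 2.11, 7.21 and 10.7 CPM in P10 PBS, giving log2 fold changes of -2.59 ± 0.42 for P10 PBS against P2 (adjusted p = 0.0153) and -0.26 ± 0.42 for P10 EV over P10 PBS (adjusted p = 0.925). Of 28 tested genes of neuronal commitment, 1 fell and 0 rose (median -0.41). It was Dpysl3, which encodes a collapsin response mediator protein of growing neurites, at 390.4, 370.4, 386 and 349 CPM in P10 EV, against 474, 638, 894 and 645 CPM in P2 (log2 fold change -0.82 ± 0.16, adjusted p = 0.044). Dpysl3 stood at 383, 326, 330.3 and 394 CPM in P10 PBS, giving log2 fold changes of -0.89 ± 0.16 for P10 PBS against P2 (adjusted p = 0.0248) and 0.06 ± 0.16 for P10 EV over P10 PBS (adjusted p = 0.955). Of 29 glutamate and GABA receptor genes, 1 fell (median -0.10), Gabrb1, a GABA-A receptor subunit, at 3.90, 5.12, 5.34 and 5.90 CPM in P10 EV, against 11.3, 14.2, 8.97 and 8.41 CPM in P2 (log2 fold change -1.08 ± 0.21, adjusted p = 0.0433). Gabrb1 stood at 4.09, 5.42, 4.96 and 4.87 CPM in P10 PBS, giving log2 fold changes of -1.15 ± 0.21 for P10 PBS against P2 (adjusted p = 0.0248) and 0.07 ± 0.21 for P10 EV over P10 PBS (adjusted p = 0.962). Mature neuron markers summed lower in P10 EV than in P2, as given above. They did not move together: of the 8 tested, 5 lay below 0 and 3 above 0, and 0 were called. Their part in these falls was not tested. Thy1 lost its call without P10 EV replicates 1, 2 or 4 or P2 replicate 4 (adjusted p up to 0.0861). Dpysl3 lost it without P10 EV replicates 1, 2, 3 or 4 or P2 replicates 2, 3 or 4 (adjusted p up to 0.143), and with limma-voom or only the 8 libraries (up to 0.106). For Dpysl3 the replicate block ended the call too (adjusted p = 0.0858). Gabrb1 lost it without P10 EV replicates 1, 2, 3 or 4 or P2 replicates 2, 3 or 4 (adjusted p up to 0.145), and with limma-voom, limma-trend, no filter or only the 8 libraries (up to 0.103). For Gabrb1 the replicate block ended the call too (adjusted p = 0.0753). Without P2 replicate 1, where 8.61% of all genes rose and 8.79% fell, 7 of the 56 axon guidance genes fell and 3 rose. In that fit 5 of the 28 commitment genes fell and 1 rose, and 4 of the 29 receptor genes fell and 1 rose. With the replicate block no commitment gene was called, and the 1 receptor gene that fell was Gria1, an AMPA receptor subunit (log2 fold change -2.31, adjusted p = 0.035). P10 PBS against P2 had 4 falls and 1 rise among the commitment genes (median -0.43). It had 3 falls and 1 rise among the receptor genes (median -0.17) and 2 falls among the axon guidance genes. All 16058 genes tested had 88 falls and 61 rises there.

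Astrocytes support neurons by glutamate uptake and secreted factors, and 4 of their genes fell. Of 28 tested, 4 fell, beside 0.411% of all genes tested, and 0 rose. Below 0 were 24 of the 28, beside 8217 of the 16058 genes tested, with a median log2 fold change of -0.63. Sparcl1, a secreted matrix protein that promotes synapses, was at 11.4, 40.6, 18.8 and 24.3 CPM in P10 EV, against 122, 180.5, 582 and 352 CPM in P2 (log2 fold change -3.70 ± 0.71, adjusted p = 0.0408). Its P10 PBS libraries spread widely, at 91.8, 13, 175 and 137 CPM. For Sparcl1 the log2 fold change of P10 PBS against P2 was -1.57 ± 0.65 (adjusted p = 0.32), and that of P10 EV over P10 PBS was -2.14 ± 0.67 (adjusted p = 0.55). Agt, angiotensinogen, was at 5.56, 4.11, 2.06 and 1.68 CPM in P10 EV, against 5.92, 35.7, 59.4 and 20.5 CPM in P2 (log2 fold change -3.17 ± 0.62, adjusted p = 0.0439), and the lowest P2 library was close to the highest P10 EV library. Agt stood at 17.3, 12.2, 8.52 and 5.81 CPM in P10 PBS, giving log2 fold changes of -1.47 ± 0.58 for P10 PBS against P2 (adjusted p = 0.292) and -1.70 ± 0.61 for P10 EV over P10 PBS (adjusted p = 0.601). Slc1a2, the main glutamate transporter of astrocytes, was at 273, 267, 236 and 244 CPM in P10 EV, against 317, 551, 1280.0 and 907 CPM in P2 (log2 fold change -1.58 ± 0.32, adjusted p = 0.0469). Slc1a2 stood at 476, 386, 362 and 492 CPM in P10 PBS, giving log2 fold changes of -0.83 ± 0.31 for P10 PBS against P2 (adjusted p = 0.272) and -0.75 ± 0.31 for P10 EV over P10 PBS (adjusted p = 0.663). Here too P2 replicate 1 was nearest to P10 EV. Cbs, cystathionine beta-synthase, was at 22.6, 19.8, 26.3 and 16.1 CPM in P10 EV, against 43.6, 62, 109 and 80.7 CPM in P2 (log2 fold change -1.80 ± 0.33, adjusted p = 0.035). Cbs stood at 61.9, 19.9, 40.8 and 41.3 CPM in P10 PBS, giving log2 fold changes of -0.85 ± 0.32 for P10 PBS against P2 (adjusted p = 0.277) and -0.95 ± 0.33 for P10 EV over P10 PBS (adjusted p = 0.596). None of the 28 was called in P10 PBS against P2 by edgeR, where their median was -0.42, and none in P10 EV against P10 PBS. Gfap, the filament protein that marks astrocytes, did not pass; it was at 5.97, 6.30, 19.9 and 5.90 CPM in P10 EV, against 1.36, 18.8, 346 and 44.9 CPM in P2. The P2 spread was thus wide for the defining marker, with P2 replicate 1 below every P10 EV library. Of these 28, 14 fell without P2 replicate 1, beside 8.79% of all genes, and the median was -0.90. With the replicate block none of the 28 was called, since all 4 calls were lost. Sparcl1 lost its call without P10 EV replicates 1, 2, 3 or 4 or P2 replicates 3 or 4 (adjusted p up to 0.14), and with limma-voom (up to 0.0626). For Sparcl1 the replicate block ended the call too (adjusted p = 0.0798). Agt lost it without P10 EV replicates 1, 2, 3 or 4 or P2 replicates 2, 3 or 4 (adjusted p up to 0.144), and with limma-voom, limma-trend or only the 8 libraries (up to 0.111). For Agt the replicate block ended the call too (adjusted p = 0.0837). Slc1a2 lost it without P10 EV replicates 1, 2, 3 or 4 or P2 replicates 3 or 4 (adjusted p up to 0.157), and with limma-voom, limma-trend or only the 8 libraries (up to 0.114). For Slc1a2 the replicate block ended the call too (adjusted p = 0.102). Cbs lost it without P10 EV replicates 1, 2, 3 or 4 or P2 replicates 3 or 4 (adjusted p up to 0.123), and with limma-voom (up to 0.0507). For Cbs the replicate block ended the call too (adjusted p = 0.0545).

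Of the oligodendrocyte lineage list, 1 of 22 tested genes fell and 0 rose (median -0.49). Cnp, a myelin enzyme, was at 49.1, 53.3, 56.4 and 46.4 CPM in P10 EV, against 70.6, 156, 274 and 119 CPM in P2 (log2 fold change -1.59 ± 0.31, adjusted p = 0.0433). Cnp stood at 83.9, 73.2, 57.6 and 59 CPM in P10 PBS, giving log2 fold changes of -1.18 ± 0.31 for P10 PBS against P2 (adjusted p = 0.104) and -0.42 ± 0.31 for P10 EV over P10 PBS (adjusted p = 0.824). It shares part of its locus with Dnajc7, whose reads may be counted with it. Of the 28 neural stem and progenitor genes, 0 were called (median -0.19). The most expressed were Ptprz1, a receptor phosphatase, at 2784 ± 490.3 CPM in P10 EV, 2766 ± 173 CPM in P10 PBS and 2789 ± 535 CPM in P2, and Tnc, the matrix protein tenascin C, at 1364 ± 243 CPM in P10 EV, 1456 ± 174 CPM in P10 PBS and 2725 ± 1024 CPM in P2 (SD, n = 4 each). Tnc had an adjusted p of 0.0742 and was called by DESeq2 and when P2 replicate 1 or 2 was left out. Cnp lost its call without P10 EV replicates 1, 2, 3 or 4 or P2 replicates 2, 3 or 4 (adjusted p up to 0.142), and with limma-voom, limma-trend or only the 8 libraries (up to 0.106). For Cnp the replicate block ended the call too (adjusted p = 0.081). Of the 22 oligodendrocyte genes, 9 fell and 0 rose without P2 replicate 1, beside 8.79% and 8.61% of all genes. Of the stem and progenitor genes, 6 fell and 1 rose in that fit. With the replicate block neither list had a call. P10 PBS against P2 had 2 falls among the oligodendrocyte genes (median -0.73), beside 88 among all 16058 genes tested. The stem and progenitor genes had 0 calls there.

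Among genes of the extracellular matrix and its proteases every call was a fall. Of 56 tested, 4 fell, beside 0.411% of all genes tested, and 40 were below 0, beside 8217 of 16058 (median -0.34). Fbln2, fibulin 2, a glycoprotein that links matrix fibres and basement membranes, was at 172, 262, 253 and 202 CPM in P10 EV, against 529, 710.1, 522 and 650.2 CPM in P2 (log2 fold change -1.44 ± 0.17, adjusted p = 0.00373). Even the highest P10 EV library stayed far under the lowest P2 library, and P10 PBS, at 243, 281, 348 and 291 CPM, overlapped the upper part of P10 EV and stayed below P2. For Fbln2 the log2 fold change of P10 PBS against P2 was -1.05 ± 0.17 (adjusted p = 0.0153), and that of P10 EV over P10 PBS was -0.39 ± 0.17 (adjusted p = 0.668). Mmp14, a membrane protease that activates pro-MMP2, was at 16.9, 17.5, 38.4 and 27.6 CPM in P10 EV, against 67.5, 72.5, 238 and 192 CPM in P2 (log2 fold change -2.51 ± 0.48, adjusted p = 0.0397). Mmp14 stood at 21, 15.1, 30.2 and 49.8 CPM in P10 PBS, giving log2 fold changes of -2.29 ± 0.48 for P10 PBS against P2 (adjusted p = 0.0428) and -0.21 ± 0.46 for P10 EV over P10 PBS (adjusted p = 0.944). Mmp2, the gelatinase it activates, was at 2.13, 1.18, 2.55 and 1.86 CPM in P10 EV, against 15.8, 4.38, 10.6 and 8.82 CPM in P2 (log2 fold change -2.35 ± 0.44, adjusted p = 0.0363). Mmp2 stood at 0.477, 2.02, 1.22 and 0.726 CPM in P10 PBS, giving log2 fold changes of -3.18 ± 0.47 for P10 PBS against P2 (adjusted p = 0.0119) and 0.83 ± 0.48 for P10 EV over P10 PBS (adjusted p = 0.762). Protease and activator were thus both low in every P10 EV library. Col4a1, a collagen chain of basement membranes that shares a promoter region with Col4a2, was at 13.8, 19.1, 13.5 and 9.13 CPM in P10 EV, against 31.7, 77.2, 44.7 and 37.8 CPM in P2 (log2 fold change -1.79 ± 0.30, adjusted p = 0.0267). Col4a1 stood at 22.5, 12.7, 22.3 and 19.6 CPM in P10 PBS, giving log2 fold changes of -1.31 ± 0.30 for P10 PBS against P2 (adjusted p = 0.0605) and -0.47 ± 0.30 for P10 EV over P10 PBS (adjusted p = 0.782). The fibroblast markers given above overlapped between P10 EV and P2, and their part in these falls was not tested. Of the 56 matrix genes, 17 fell without P2 replicate 1, beside 8.79% of all genes, and 0 rose, beside 8.61%. P10 PBS against P2 also had 4 falls among the 56 (median -0.21), beside 88 among all 16058 genes tested. Mmp14 lost its call without P10 EV replicates 1, 2, 3 or 4 or P2 replicates 3 or 4 (adjusted p up to 0.137), and with limma-voom or only the 8 libraries (up to 0.0684). Mmp2 lost it without P10 EV replicates 1, 2, 3 or 4 or P2 replicates 3 or 4 (adjusted p up to 0.125), and with limma-voom or only the 8 libraries (up to 0.0598). For Mmp2 the replicate block ended the call too (adjusted p = 0.081). Col4a1 lost it without P10 EV replicates 1, 2, 3 or 4 or P2 replicates 3 or 4 (adjusted p up to 0.0985), and with only the 8 libraries (up to 0.0612).

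Members of the signalling lists gave few calls. Pmepa1 and Ldlrad4, called rises that restrain TGF-beta signalling and are described below, were not on the TGF-beta and BMP list. Of 50 TGF-beta and BMP pathway genes tested, 1 fell and 0 rose (median -0.06), and of 28 senescence and secreted factor genes the same gene fell (median -0.43). It was Gdf15, a stress-induced member of the TGF-beta superfamily, at 4.49, 9.74, 9.54 and 7.08 CPM in P10 EV, against 16.3, 33.7, 26.8 and 23.7 CPM in P2 (log2 fold change -1.71 ± 0.26, adjusted p = 0.0184). P10 PBS held it at 8.86, 8.91, 10.3 and 11.2 CPM, also below P2. For Gdf15 the log2 fold change of P10 PBS against P2 was -1.35 ± 0.26 (adjusted p = 0.0291), and that of P10 EV over P10 PBS was -0.35 ± 0.26 (adjusted p = 0.824). Dhh, a hedgehog ligand, was at 3.25, 1.43, 3.29 and 1.80 CPM in P10 EV, against 25.1, 41.4, 4.74 and 14.8 CPM in P2 (log2 fold change -3.13 ± 0.58, adjusted p = 0.035). Dhh stood at 4.63, 1.65, 1.5 and 2.90 CPM in P10 PBS, giving log2 fold changes of -2.98 ± 0.58 for P10 PBS against P2 (adjusted p = 0.0302) and -0.15 ± 0.58 for P10 EV over P10 PBS (adjusted p = 0.974). Its P2 libraries spread from 4.74 to 41.4 CPM, and the lowest of them was close to P10 EV. Of the 44 other Wnt and Hedgehog genes tested, 0 were called (median -0.10); the most expressed, Ptch1 and Lrp6, averaged 232 ± 9.76 and 218 ± 21.6 CPM in P10 EV, 235 ± 7.85 and 187 ± 28.5 CPM in P10 PBS and 269 ± 68.3 and 192 ± 34.5 CPM in P2. Gdf15 lost its call without P10 EV replicates 1, 2 or 4 or P2 replicate 4 (adjusted p up to 0.0861), and with only the 8 libraries (up to 0.0598). Dhh lost it without P10 EV replicates 1, 2, 3 or 4 or P2 replicate 4 (adjusted p up to 0.127), and with limma-voom, limma-trend or only the 8 libraries (up to 0.0851). For Dhh the replicate block ended the call too (adjusted p = 0.081). Of the 50 TGF-beta and BMP genes, 7 fell and 2 rose without P2 replicate 1, beside 8.79% and 8.61% of all genes. In that fit 7 of the 28 senescence genes fell and 3 rose, and 4 of the 44 Wnt and Hedgehog genes fell and 2 rose. With the replicate block Skil, a SMAD co-repressor, also rose (log2 fold change 1.04, adjusted p = 0.0431). P10 PBS against P2 had 3 falls among the senescence genes (median -0.04) and 1 among the TGF-beta and BMP genes (median -0.01). The Wnt and Hedgehog genes had 0 calls there, and all 16058 genes tested had 88 falls.

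Further falls came from genes of lipid metabolism, immunity and the cell surface. Acot11, an acyl-CoA thioesterase, was at 7.74, 9.66, 9.54 and 10.3 CPM in P10 EV, against 32.3, 37.6, 31.7 and 36.2 CPM in P2 (log2 fold change -1.89 ± 0.19, adjusted p = 0.00107). Its P2 libraries were all above 31 CPM and its P10 PBS libraries, at 12.7, 12.9, 9.26 and 7.19 CPM, overlapped P10 EV. For Acot11 the log2 fold change of P10 PBS against P2 was -1.71 ± 0.19 (adjusted p = 0.00227), and that of P10 EV over P10 PBS was -0.17 ± 0.19 (adjusted p = 0.884). Thrsp, a regulator of fatty acid synthesis and the 1 of 19 genes of that list to be called, was at 5.79, 7.47, 4.85 and 4.53 CPM in P10 EV, against 11.6, 43.3, 85.9 and 49.8 CPM in P2 (log2 fold change -3.07 ± 0.54, adjusted p = 0.0312). P10 PBS was at 41.7, 9.82, 24.7 and 24.8 CPM and was not called against P2 (adjusted p = 0.435), but neither was the difference of P10 EV from P10 PBS (log2 -2.16 ± 0.52, adjusted p = 0.399). Of 35 tested MHC class I and interferon response genes, 2 fell, beside 0.411% of all genes tested, and 30 were below 0 (median -0.52). Ifitm3, an antiviral membrane protein, was at 5.91, 8.31, 7.24 and 4.84 CPM in P10 EV, against 21.4, 13.9, 25.7 and 24.5 CPM in P2 (log2 fold change -1.70 ± 0.28, adjusted p = 0.0234). Ifitm3 stood at 7.90, 3.95, 9.17 and 6.68 CPM in P10 PBS, giving log2 fold changes of -1.62 ± 0.28 for P10 PBS against P2 (adjusted p = 0.0181) and -0.08 ± 0.28 for P10 EV over P10 PBS (adjusted p = 0.968). Bst2, tetherin, was low in both groups, at 0.532, 0.588, 0.247 and 0.248 CPM in P10 EV, against 2.35, 2.48, 2.03 and 1.98 CPM in P2 (log2 fold change -2.43 ± 0.43, adjusted p = 0.0329). Bst2 stood at 0.477, 1.38, 0.561 and 0.363 CPM in P10 PBS, giving log2 fold changes of -1.69 ± 0.41 for P10 PBS against P2 (adjusted p = 0.0816) and -0.74 ± 0.46 for P10 EV over P10 PBS (adjusted p = 0.782). Adgre5, an adhesion receptor, was at 11.5, 10.8, 10.8 and 9.38 CPM in P10 EV, against 25, 22.1, 21.7 and 30.7 CPM in P2 (log2 fold change -1.23 ± 0.16, adjusted p = 0.00739); it overlaps Ddx39. Adgre5 stood at 11.8, 10.8, 13.7 and 14.6 CPM in P10 PBS, giving log2 fold changes of -0.97 ± 0.16 for P10 PBS against P2 (adjusted p = 0.0153) and -0.26 ± 0.16 for P10 EV over P10 PBS (adjusted p = 0.777). Thrsp lost its call without P10 EV replicates 1, 2, 3 or 4 or P2 replicates 3 or 4 (adjusted p up to 0.116), and with limma-voom or only the 8 libraries (up to 0.0844). For Thrsp the replicate block ended the call too (adjusted p = 0.0785). Ifitm3 lost it without P10 EV replicates 1, 2, 3 or 4 or P2 replicates 3 or 4 (adjusted p up to 0.0941). Bst2 lost it without P10 EV replicates 1, 2, 3 or 4 or P2 replicates 3 or 4 (adjusted p up to 0.116). Adgre5 lost it without P10 EV replicate 4 (adjusted p up to 0.0533). Of the 35 MHC and interferon genes, 13 fell and 2 rose without P2 replicate 1, beside 8.79% and 8.61% of all genes. The fatty acid list then had 2 of 19 that fell and 2 that rose. With the replicate block none of the 19 was called. P10 PBS against P2 had 1 fall and 1 rise among the MHC and interferon genes (median -0.21) and 0 calls in the fatty acid list. All 16058 genes tested had 88 falls and 61 rises there.

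Clec3b, Cd82 and Olfml2a completed the 10 largest falls among named genes that averaged 5 CPM or more in P2. Clec3b, tetranectin, was at 1.95, 2.52, 2.63 and 2.98 CPM in P10 EV, against 10.9, 14.9, 39.9 and 39.1 CPM in P2 (log2 fold change -3.37 ± 0.51, adjusted p = 0.0162). Clec3b stood at 6.20, 2.75, 10.9 and 11.7 CPM in P10 PBS, giving log2 fold changes of -1.73 ± 0.47 for P10 PBS against P2 (adjusted p = 0.115) and -1.64 ± 0.49 for P10 EV over P10 PBS (adjusted p = 0.543). Cd82, a tetraspanin, was at 0.473, 0.672, 0.987 and 0.683 CPM in P10 EV, against 1.85, 5.04, 28 and 9.07 CPM in P2 (log2 fold change -3.96 ± 0.73, adjusted p = 0.035). Cd82 stood at 0.545, 1.01, 1.59 and 1.82 CPM in P10 PBS, giving log2 fold changes of -3.14 ± 0.69 for P10 PBS against P2 (adjusted p = 0.0556) and -0.82 ± 0.76 for P10 EV over P10 PBS (adjusted p = 0.858). The P2 mean of Cd82 rested largely on replicate 3. Olfml2a, an olfactomedin-like secreted protein, was at 0.236, 2.02, 1.73 and 0.745 CPM in P10 EV, against 4.14, 13.5, 6.85 and 7.09 CPM in P2 (log2 fold change -2.78 ± 0.56, adjusted p = 0.0469). Olfml2a stood at 0.954, 0.735, 2.15 and 1.74 CPM in P10 PBS, giving log2 fold changes of -2.50 ± 0.55 for P10 PBS against P2 (adjusted p = 0.0562) and -0.28 ± 0.58 for P10 EV over P10 PBS (adjusted p = 0.942). Clec3b lost its call without P10 EV replicates 1, 2, 3 or 4 or P2 replicate 4 (adjusted p up to 0.0847). Cd82 lost it without P10 EV replicates 1, 2, 3 or 4 or P2 replicates 3 or 4 (adjusted p up to 0.132), and with limma-voom, limma-trend or only the 8 libraries (up to 0.113). Olfml2a lost it without P10 EV replicates 1, 2, 3 or 4 or P2 replicates 2, 3 or 4 (adjusted p up to 0.167), and with only the 8 libraries (up to 0.101).

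The 7 rising genes whose P10 EV libraries all stood above P10 PBS were Pmepa1, Ldlrad4, Pcgf2, Spats2l, Abcg2, Rtkn2 and Gm43793, and the first 3 of them were at least 2 times as high. Pmepa1, a membrane protein that binds SMADs and dampens TGF-beta signalling, was at 27.9, 29.2, 42.4 and 30.9 CPM in P10 EV, against 11.9, 12.4, 5.05 and 6.17 CPM in P10 PBS and 5.63, 6.28, 5.75 and 3.55 CPM in P2. Against P2 its log2 fold change was 2.62 ± 0.30 (adjusted p = 0.00373), and that of P10 PBS was 0.74 ± 0.30 (adjusted p = 0.296). P10 EV over P10 PBS was 1.87 ± 0.29 on the log2 scale and did not pass the test over all genes (adjusted p = 0.257). Ldlrad4, a relative of Pmepa1 that also restrains TGF-beta signalling, was at 15.3, 16, 22.4 and 18.2 CPM in P10 EV, against 4.56, 4.41, 6.92 and 5.74 CPM in P10 PBS and 8.42, 6.28, 3.47 and 3.38 CPM in P2. Its log2 fold change against P2 was 1.73 ± 0.29 (adjusted p = 0.0261) in P10 EV and -0.00 ± 0.29 (adjusted p = 0.999) in P10 PBS, with 1.73 ± 0.29 between the late groups (adjusted p = 0.264). Pcgf2, a polycomb subunit and the 1 called gene of 44 chromatin regulators (0 fell, median -0.04), was at 9.40, 7.22, 13.1 and 9.44 CPM in P10 EV, against 4.22, 4.50, 3.56 and 3.20 CPM in P10 PBS and 2.42, 4.46, 4.06 and 4.04 CPM in P2. Its log2 fold change against P2 was 1.38 ± 0.24 (adjusted p = 0.0329) in P10 EV and 0.05 ± 0.25 (adjusted p = 0.956) in P10 PBS, and the late groups differed by 1.34 ± 0.24 (adjusted p = 0.269). Neither Pmepa1 nor Ldlrad4 was on the list of TGF-beta and BMP pathway genes described above. Ldlrad4 lost its call without P10 EV replicates 1, 2, 3 or 4 or P2 replicates 3 or 4 (adjusted p up to 0.0879), and with only the 8 libraries (up to 0.0665). For Ldlrad4 the replicate block ended the call too (adjusted p = 0.0613). Pcgf2 lost it without P10 EV replicates 1, 2, 3 or 4 or P2 replicates 3 or 4 (adjusted p up to 0.0951), and with only the 8 libraries (up to 0.0768). For Pcgf2 the replicate block ended the call too (adjusted p = 0.0641), leaving 0 of the 44 chromatin regulators called. Of those 44, 6 rose and 6 fell without P2 replicate 1, beside 8.61% and 8.79% of all genes.

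The other named rises mostly had P10 PBS above P2 as well. Spats2l, which encodes a protein found in stress granules, was at 55, 57.3, 50.7 and 51.3 CPM in P10 EV, against 23.6, 27.1, 15.6 and 19.9 CPM in P2 (log2 fold change 1.31 ± 0.16, adjusted p = 0.00417), with 39.4, 44.9, 39.7 and 46.8 CPM in P10 PBS. For Spats2l the log2 fold change of P10 PBS against P2 was 0.98 ± 0.16 (adjusted p = 0.0153), and that of P10 EV over P10 PBS was 0.33 ± 0.15 (adjusted p = 0.697). St6gal2, a sialyltransferase, was at 43.8, 36.4, 27.4 and 43.2 CPM in P10 EV, against 3.07, 10.4, 13.6 and 7.26 CPM in P2 (log2 fold change 2.14 ± 0.36, adjusted p = 0.026); P10 PBS had 34, 54.4, 32.3 and 33.4 CPM. For St6gal2 the log2 fold change of P10 PBS against P2 was 2.17 ± 0.36 (adjusted p = 0.0153), and that of P10 EV over P10 PBS was -0.03 ± 0.34 (adjusted p = 0.992). Spats2l and St6gal2 were thus above P2 in each of the 8 late libraries. Frk, a Src-related kinase, was at 5.38, 5.63, 4.77 and 8.26 CPM in P10 EV, against 1.14, 1.39, 2.79 and 1.90 CPM in P2 (log2 fold change 1.74 ± 0.29, adjusted p = 0.0254). Frk stood at 7.77, 9.73, 10.1 and 7.55 CPM in P10 PBS, giving log2 fold changes of 2.29 ± 0.29 for P10 PBS against P2 (adjusted p = 0.00408) and -0.54 ± 0.27 for P10 EV over P10 PBS (adjusted p = 0.726). Iqgap2, a scaffold of the actin skeleton, was at 96.1, 87.2, 99.5 and 119.8 CPM in P10 EV, against 55.8, 41.4, 22.3 and 37.4 CPM in P2 (log2 fold change 1.36 ± 0.25, adjusted p = 0.035). Iqgap2 stood at 79, 66.7, 121 and 98.6 CPM in P10 PBS, giving log2 fold changes of 1.22 ± 0.25 for P10 PBS against P2 (adjusted p = 0.0396) and 0.14 ± 0.25 for P10 EV over P10 PBS (adjusted p = 0.928). It overlaps F2rl2.

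Pcyt1b, an enzyme of phosphatidylcholine synthesis, was at 61.7, 52.1, 43.3 and 44.1 CPM in P10 EV, against 17, 33.3, 17 and 13.8 CPM in P2 (log2 fold change 1.31 ± 0.25, adjusted p = 0.0352). Pcyt1b stood at 68, 49.9, 56.3 and 52.6 CPM in P10 PBS, giving log2 fold changes of 1.48 ± 0.25 for P10 PBS against P2 (adjusted p = 0.0153) and -0.17 ± 0.24 for P10 EV over P10 PBS (adjusted p = 0.91). Ptprd, a receptor phosphatase of synapse formation, was at 103, 87.5, 82.6 and 116 CPM in P10 EV, against 35.4, 57.4, 36.3 and 43.2 CPM in P2 (log2 fold change 1.18 ± 0.21, adjusted p = 0.0333), while P10 PBS, at 57.5, 55.4, 87.7 and 91.9 CPM, was not called (adjusted p = 0.12). P10 EV over P10 PBS was 0.42 ± 0.21 for Ptprd on the log2 scale (adjusted p = 0.733). Lmo7, a LIM domain protein of cell junctions, was at 11.3, 9.66, 10.9 and 12 CPM in P10 EV, against 4.35, 7.16, 4.31 and 3.55 CPM in P2 (log2 fold change 1.17 ± 0.21, adjusted p = 0.0333). Lmo7 stood at 11, 11.9, 11.4 and 9.73 CPM in P10 PBS, giving log2 fold changes of 1.18 ± 0.21 for P10 PBS against P2 (adjusted p = 0.0228) and -0.01 ± 0.20 for P10 EV over P10 PBS (adjusted p = 0.997). St6gal2 lost its call without P10 EV replicates 1, 2 or 4 or P2 replicate 4 (adjusted p up to 0.0887), and with only the 8 libraries (up to 0.0665). Frk lost it without P10 EV replicates 1, 2 or 4 or P2 replicate 4 (adjusted p up to 0.0871), and with only the 8 libraries (up to 0.0766). Iqgap2 lost it without P10 EV replicates 1, 2, 3 or 4 or P2 replicates 2, 3 or 4 (adjusted p up to 0.119), and with only the 8 libraries (up to 0.0708). For Iqgap2 the replicate block ended the call too (adjusted p = 0.0756). Pcyt1b lost it without P10 EV replicates 1, 2, 3 or 4 or P2 replicates 3 or 4 (adjusted p up to 0.117), and with only the 8 libraries (up to 0.096). Ptprd lost it without P10 EV replicates 1, 2, 3 or 4 or P2 replicates 3 or 4 (adjusted p up to 0.115), and with only the 8 libraries (up to 0.055). For Ptprd the replicate block ended the call too (adjusted p = 0.0574). Lmo7 lost it without P10 EV replicates 1, 2, 3 or 4 or P2 replicates 3 or 4 (adjusted p up to 0.111), and with only the 8 libraries (up to 0.0945). For Lmo7 the replicate block ended the call too (adjusted p = 0.0545).

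The other 17 genes that rose were smaller changes or genes of few reads, and they and the falls below are named after their values were seen. Abcg2, a transporter that marks stem cells of several tissues, was at 55.4 to 59.3 CPM in P10 EV, against 21.7 to 34.6 CPM in P2. Zic5, a zinc finger gene of neural development, was at 12.3 to 13.7 CPM in P10 EV, against 4.49 to 7.82 CPM in P2. In the edgeR test of P10 PBS against P2, Zic5 was called (adjusted p = 0.0141) and Abcg2 was not (adjusted p = 0.324). Abcg2 lost its call without P10 EV replicates 1, 2, 3 or 4 or P2 replicates 3 or 4 (adjusted p up to 0.0939), and with only the 8 libraries (up to 0.0598). Zic5 lost it without P10 EV replicates 1, 2, 3 or 4 or P2 replicates 3 or 4 (adjusted p up to 0.123), and with limma-voom or only the 8 libraries (up to 0.0612). For Zic5 the replicate block ended the call too (adjusted p = 0.0898). Others were Mgat4a, Rtkn2, Fam69a, Slc44a5, Ccnyl1, Lrrc4c, Ptprk, BC037039, AU020206, C130026L21Rik, Gm15261, Gm37827, Gm43793 and Gm12992. Of these others, Mgat4a and AU020206 kept their calls with the replicate block and the rest lost them. BC037039 lies among the protocadherin gamma genes, and Gm15261, Gm37827, Gm43793, Gm12992, Mgat4a, Fam69a and Ccnyl1 each overlap another expressed gene, so their reads are uncertain.

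Among the remaining falls, Mapk4, an atypical MAP kinase, was at 34.3 to 39.7 CPM in P10 EV, against 59.4 to 82.7 CPM in P2 (log2 fold change -0.98 ± 0.13, adjusted p = 0.0108). Mapk3, the kinase ERK1, was at 32.3 to 41.2 CPM in P10 EV, against 58.4 to 85.4 CPM in P2 (log2 fold change -0.85 ± 0.14, adjusted p = 0.0229). Gas6, a ligand of TAM receptors, was at 41 to 48.7 CPM in P10 EV, against 87.1 to 111 CPM in P2 (log2 fold change -1.15 ± 0.17, adjusted p = 0.0162). Tob1, which restrains proliferation, was at 34.9 to 44.1 CPM in P10 EV, against 57.1 to 80.3 CPM in P2 (log2 fold change -0.92 ± 0.15, adjusted p = 0.0234). Each of these 4 genes had P10 EV below P2 without overlap. Dio2, which activates thyroid hormone, was at 1.60 to 5.03 CPM in P10 EV, against 11.8 to 28.7 CPM in P2 (log2 fold change -2.52 ± 0.46, adjusted p = 0.035). Syt7, a synaptotagmin, was at 40.0 to 63.4 CPM in P10 EV, against 114 to 192 CPM in P2 (log2 fold change -1.42 ± 0.20, adjusted p = 0.0145). In the edgeR test of P10 PBS against P2, Mapk4 (adjusted p = 0.0141), Gas6 (0.00243), Dio2 (0.042) and Syt7 (0.0445, but 0.0795 with the replicate block) were called. Mapk3 (0.0865) and Tob1 (0.0639) were not called there. Ddo, D-aspartate oxidase, was at 0.236, 0.168, 0 and 0.248 CPM in P10 EV, against 4.16, 1.74, 0.749 and 0.872 CPM in P10 PBS and 0.642, 3.29, 5.67 and 3.22 CPM in P2. Its P10 EV libraries were below those of P10 PBS, at a log2 difference of -3.40 ± 0.83 that did not pass (adjusted p = 0.401). Glis3, a zinc finger factor, was at 14.2, 14.7, 14.2 and 10.9 CPM in P10 EV, against 43.1, 19.7, 23.4 and 21.9 CPM in P10 PBS and 31.9, 31.1, 30.4 and 29.3 CPM in P2. Without overlap, P10 EV lay below both, while P10 PBS was not called against P2 (adjusted p = 0.753) and the late groups did not differ past the threshold (adjusted p = 0.399). Mapk4 lost its call without P10 EV replicates 2 or 4 (adjusted p up to 0.0607). Mapk3 lost it without P10 EV replicates 1, 2, 3 or 4 or P2 replicate 4 (adjusted p up to 0.0871), and with only the 8 libraries (up to 0.0676). Gas6 lost it without P10 EV replicates 1, 2 or 4 or P2 replicate 4 (adjusted p up to 0.0847). Tob1 lost it without P10 EV replicates 1, 2, 3 or 4 or P2 replicates 3 or 4 (adjusted p up to 0.0941), and with only the 8 libraries (up to 0.055). These 4 kept their calls with the replicate block. Dio2 lost its call without P10 EV replicates 1, 2, 3 or 4 or P2 replicates 3 or 4 (adjusted p up to 0.118), and with only the 8 libraries (up to 0.0598). Syt7 lost it without P10 EV replicates 2, 3 or 4 or P2 replicate 4 (adjusted p up to 0.0612). Ddo lost it without P10 EV replicates 1, 2, 3 or 4 or P2 replicates 2, 3 or 4 (adjusted p up to 0.137), and with limma-voom, limma-trend or only the 8 libraries (up to 0.103). For Ddo the replicate block ended the call too (adjusted p = 0.1). Glis3 lost it without P10 EV replicates 1, 2, 3 or 4 or P2 replicates 3 or 4 (adjusted p up to 0.125). Other genes that fell were Abhd14b, Arhgef17, Ccbe1, Chchd10, Csgalnact1, Csrp1, Cxcr4, Efhd2, Gsg1l, Htra1, Kcnn3, Lix1, Lrrc24, Mansc1, Mdk, Mvb12a, Myh14, Neil1, Ntm, Paqr7, Pcx, Pdcd4, Pde1c, Pipox, Rcan2, S100a1, Slc22a17, Slc7a4 and Tmco4. Of these others, Chchd10, Csgalnact1, Csrp1, Efhd2, Lix1, Mansc1, Mdk, Paqr7, Pcx, Pde1c and Tmco4 kept their calls with the replicate block. The rest of them lost their calls in that fit. Myh14 has 2 overlapping identifiers in the table, and Htra1, Lrrc24, Ntm, Pcx, Pdcd4, Slc7a4, Syt7 and Mapk4 overlap other expressed genes.

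Several gene lists leaned strongly to 1 side with 0 called members, while 7841 of all genes tested lay above 0 and 8217 below 0. All but 1 of 48 genes of DNA replication were above 0 in P10 EV, at a median log2 fold change of 0.81, and all but 1 of 50 mitosis genes, at 0.57, yet none passed the test. Mcm2, a subunit of the replicative helicase, was at 327, 287, 329 and 287 CPM in P10 EV, against 329, 261, 279.8 and 249 CPM in P10 PBS and 347, 198, 68.7 and 107 CPM in P2 (log2 fold change 0.77 ± 0.36, adjusted p = 0.269). Rrm1, ribonucleotide reductase, was at 482, 464, 498 and 465 CPM in P10 EV, against 384, 378, 448 and 428 CPM in P10 PBS and 427, 310.4, 133 and 156 CPM in P2 (log2 fold change 0.89 ± 0.29, adjusted p = 0.14). P2 replicate 1 was above every P10 EV library for Mcm2 and just below them for Rrm1, and the other P2 libraries were lower. Mki67, a marker of dividing cells, was at 515, 468, 481 and 861 CPM in P10 EV, against 367, 381, 512 and 553 CPM in P10 PBS and 899, 250.3, 117 and 239 CPM in P2, and Top2a, the mitotic topoisomerase, at 600.3, 620.2, 604 and 813 CPM in P10 EV, against 450.3, 433, 709 and 700.2 CPM in P10 PBS and 673, 343, 203 and 358 CPM in P2. P2 replicate 1 exceeded all 4 P10 EV libraries for Mki67 and 3 of the 4 for Top2a. Without P2 replicate 1, 45 of the 48 replication genes and 46 of the 50 mitosis genes rose and 0 fell, beside 8.61% and 8.79% of all genes. The median log2 fold changes were then 1.31 and 0.96. P10 PBS showed medians of 0.67 for replication and 0.35 for mitosis against P2, with 0 calls, and shares the P2 libraries.

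**Figure D4:**
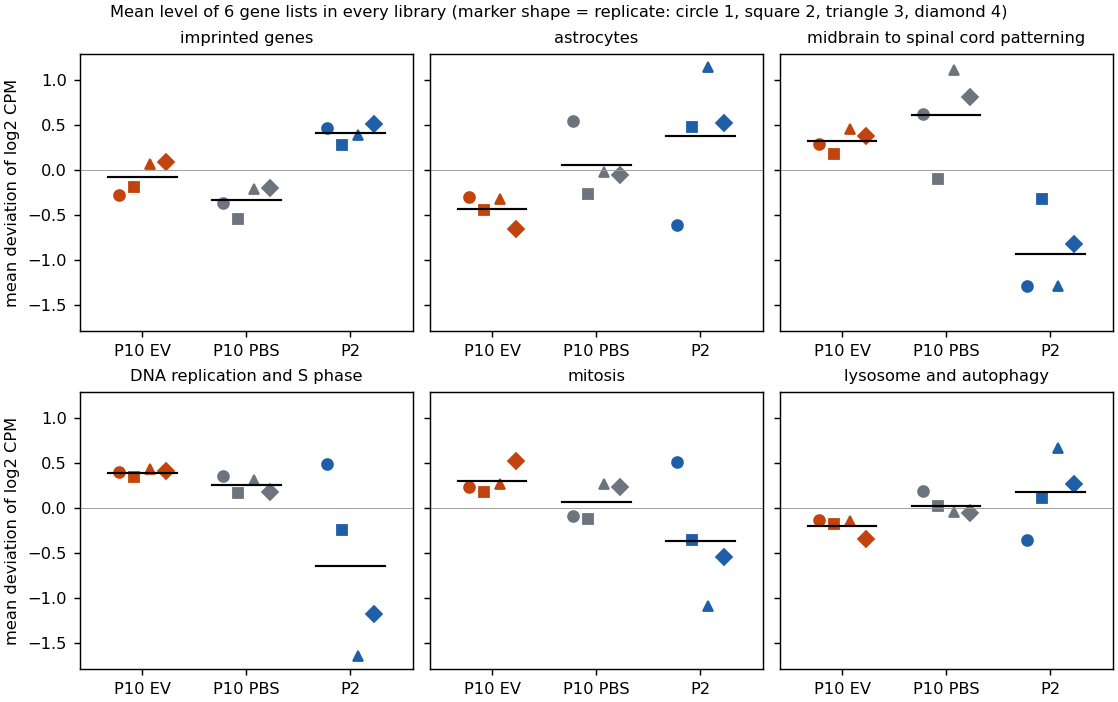
Mean deviation of log2 CPM from its mean over the 12 libraries (y axis), averaged over the tested members of 6 lists, for each library of P10 EV (red), P10 PBS (grey) and P2 (blue); marker shape gives the replicate and the line the mean of 4. For DNA replication P10 EV lies at 0.34 to 0.43 and P2 replicate 1 at 0.48, while P2 replicates 2, 3 and 4 lie at -0.24, -1.64 and -1.17.

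Lists of metabolism and stress were below 0 for most members, beside 8217 of the 16058 genes tested. Of 41 tested genes of glycolysis and the hypoxia response, 38 were below 0 and 0 were called (median -0.53, against 0.25 in P10 PBS versus P2). Pkm, pyruvate kinase, was at 1707 ± 351 CPM in P10 EV, 2494 ± 421 CPM in P10 PBS and 2244 ± 542 CPM in P2, and Eno1, enolase, at 800.3 ± 185 CPM in P10 EV, 1162 ± 418 CPM in P10 PBS and 799 ± 371 CPM in P2 (SD, n = 4 each). Of 74 genes of oxidative phosphorylation, 64 were below 0 and 0 were called (median -0.19), with Atp5b at 1530.5 ± 181 CPM in P10 EV, 1830.5 ± 231 CPM in P10 PBS and 1722 ± 166 CPM in P2. Of 44 lysosome and autophagy genes, 41 were below 0 and 0 were called (median -0.41). Psap, the precursor of the saposins, was at 489 ± 59.9 CPM in P10 EV, 681 ± 124 CPM in P10 PBS and 759 ± 272 CPM in P2, and Lamp1, a lysosomal membrane protein, at 469 ± 27 CPM in P10 EV, 602 ± 69.2 CPM in P10 PBS and 581 ± 217 CPM in P2. Endoplasmic reticulum and integrated stress genes had the lowest median of the 27 lists other than cell type markers, -0.70, with 23 of 32 below 0 and 0 called. Slc7a5, an amino acid transporter, was at 470.1, 461, 463 and 349 CPM in P10 EV, against 441, 408, 609 and 710.3 CPM in P10 PBS and 261, 483, 922 and 1381 CPM in P2, with P2 replicate 1 below every P10 EV library. Without P2 replicate 1, where 8.79% of all genes fell and 8.61% rose, 20 of the 44 lysosome genes fell and 0 rose. In the same fit 17 of the 32 stress genes fell and 2 rose, and 7 of the 41 glycolysis genes fell and 0 rose. For oxidative phosphorylation the 4 of 74 that fell and the 1 that rose were no larger a share than among all genes.

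Genes of cholesterol synthesis were above 0 for 23 of 25 members with 0 called (median 0.46, and 0.89 in P10 PBS against P2). Hmgcs1, an early enzyme of the path, was at 999 ± 134 CPM in P10 EV, 1361 ± 496 CPM in P10 PBS and 695 ± 286 CPM in P2, and Srebf2, its main regulator, at 548 ± 73 CPM in P10 EV, 643 ± 43.1 CPM in P10 PBS and 501 ± 136 CPM in P2. Leaving out P2 replicate 1 gave 2 rises among the 25, near the 8.61% of all genes, and leaving out the 4 libraries with liver transcripts gave 18, beside 10.5%. Antioxidant and detoxifying enzymes had 0 of 35 called (median -0.22), with Txn1, thioredoxin, at 504 ± 30.9 CPM in P10 EV, 652 ± 89.8 CPM in P10 PBS and 417 ± 27.9 CPM in P2; it rose in P10 PBS (adjusted p = 0.0248 against P2) and did not pass in P10 EV (adjusted p = 0.231). Of those 35, 6 fell and 2 rose without P2 replicate 1, beside 8.79% and 8.61% of all genes. The fetal regulators of the Igf2bp, Lin28 and Hmga families had 0 of 11 called (median 0.03), and 2 fell without P2 replicate 1 (8.79% of all genes). P10 PBS against P2 had 3 falls among the 11 (median -0.20), beside 88 among all 16058 genes tested. Igf2bp3, an RNA-binding protein of fetal tissues, was at 21.8, 22.2, 40.5 and 42.2 CPM in P10 EV, against 10.7, 4.96, 11.7 and 15.9 CPM in P10 PBS and 52.3, 22.1, 49.1 and 53.8 CPM in P2. Its P10 EV libraries were all above those of P10 PBS and overlapped P2, with a log2 fold change against P2 of -0.49 ± 0.35 (adjusted p = 0.461) in P10 EV and -2.03 ± 0.37 (adjusted p = 0.0248) in P10 PBS. P10 EV over P10 PBS was 1.54 ± 0.37 on the log2 scale and did not pass (adjusted p = 0.399).

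**Figure D5:**
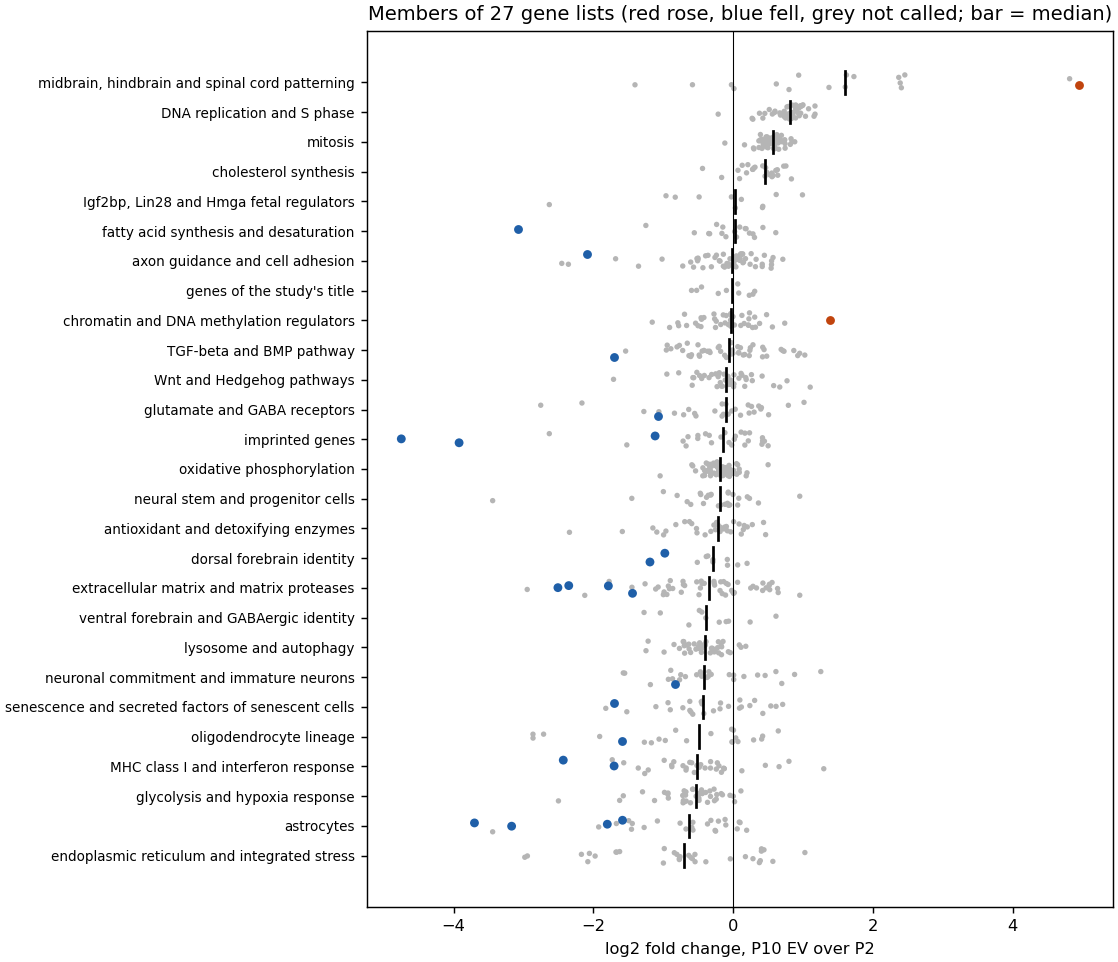
Log2 fold change of P10 EV over P2 (x axis) for each tested member of 27 gene lists (rows); red points rose, blue points fell, grey points were not called, and the bar is the median. The medians run from -0.70 for endoplasmic reticulum and integrated stress to 1.60 for midbrain, hindbrain and spinal cord patterning.

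Genes named in the study's title were not among the calls. Of 11, Smad6 had too few reads to be tested, and 0 of the other 10 passed in P10 EV against P2 (median -0.02). Myt1, a zinc finger factor of neural differentiation, was at 84.9, 87.6, 113 and 116 CPM in P10 EV, against 41.9, 85, 55.9 and 54.6 CPM in P10 PBS and 111, 114, 212 and 140.3 CPM in P2. Its P10 EV mean lay between the other groups, and its libraries overlapped with those of both. Myt1 fell in P10 PBS against P2 (log2 fold change -1.28 ± 0.25, adjusted p = 0.0284), while P10 EV against P2 gave -0.52 ± 0.24 (adjusted p = 0.26) and P10 EV against P10 PBS 0.76 ± 0.24 (adjusted p = 0.55). Egln3, an oxygen-sensing prolyl hydroxylase, was at 33.3, 36, 52.2 and 33.2 CPM in P10 EV, against 43.8, 20.6, 79.9 and 113 CPM in P10 PBS and 20.1, 110.2, 30.5 and 50.7 CPM in P2. Sirt1, an NAD-dependent deacetylase, was at 23.4, 32.7, 25.9 and 41.7 CPM in P10 EV, against 25.2, 36.2, 29.8 and 28.7 CPM in P10 PBS and 30.3, 19.9, 22.9 and 26.7 CPM in P2. Neither passed against P2 (adjusted p = 0.658 for Egln3 and 0.404 for Sirt1), and their groups overlapped. The receptor-regulated Smad1, Smad2, Smad3, Smad5 and Smad9, the shared Smad4 and the inhibitory Smad7 had log2 fold changes against P2 of -0.10 ± 0.11, 0.28 ± 0.18, 0.07 ± 0.22, 0.23 ± 0.17, -0.60 ± 0.41, -0.21 ± 0.12 and 0.08 ± 0.25, in that order. Smad2 was called when P2 replicate 1 was left out. Without the 4 libraries with liver transcripts Smad2 and Smad9 were both called, Smad9 as a fall (log2 fold change -1.09, adjusted p = 0.0358). Of the 34 genes chosen by list or title that were not called in P10 EV, 3 differed between P10 PBS and P2 (Igf2bp3, Txn1 and Myt1, with values above), and 0 differed between P10 EV and P10 PBS by edgeR (smallest adjusted p = 0.399, with 5 at an unadjusted p under 0.05).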

How the data were processed

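RNA of 12 libraries, 4 a group, was prepared with a poly-A TruSeq kit and read as pairs, per the labels' protocols. The authors deposited 1 table of raw counts and FPKM values per gene; the submitters' processing notes name HISAT2 2.0.4 and StringTie 1.3.0. What counted the reads, whether by strand, and which genome build was used are unstated in those sources. Of the table's 34745 identifiers, 34267 are in GENCODE M21, 80.8% of them at the same locus, and 10536 genes had no read. The deposited counts were tested with edgeR 4.0.16 in R 4.3.3: genes kept by filterByExpr at a minimum count of 10, TMM scaling, 1 mean for each of the 3 groups, a quasi-likelihood test with 9 residual degrees of freedom and Benjamini-Hochberg adjustment over 16058 genes, called under 0.05. The standard error is the fold change divided by the root of the F statistic. The deposited FPKM values entered 1 alternative, limma 3.58.1 on log2(FPKM + 1). DESeq2 1.42.0, limma-voom, other scaling and filters, the replicate block and leaving out libraries were the other alternatives. The test was tried on simulated counts.

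Genes were named by a rule: of called genes that had groups apart, a true symbol and a higher group averaging 5 CPM or more, the 10 largest changes and the 5 smallest adjusted p each way; the title's genes; and up to 4 called members of a list, or 2 of its most expressed. Members and lists were chosen with earlier results of these data known. Promoter windows were held for 64.3% of the genes that rose, 69.7% of those that fell and 66.4% of all tested. Since the rest had no window, no comparison of CG content or motifs between these sets is given. The CG counts of the Grb10, Ndn and Magel2 windows were set only beside the windows held. Intervals on counts cover counting error only. The labels state no donors, but same-numbered libraries of the 3 groups share a culture name in the sample descriptions, and sex-linked transcripts went with the number, so the number was taken to pair the libraries. Deviations of P10 EV and P2 libraries of the same number from their group means correlated at 0.0874, 0.125, 0.187 and 0.166 for numbers 1 to 4. P10 EV replicates 2 and 3 correlated best with the P2 library of their own number. P10 EV replicate 1 correlated best with P2 replicate 2 (0.193) and P10 EV replicate 4 with P2 replicate 1 (0.199), so these values do not settle the pairing. The tests reported have no block. Calls that the block ended are given with the genes, and of the 22 genes that gained one only Gria1 and Skil are named.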

Additional observations from a re-analysis of the deposited data

Results flagged for a closer look

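In 14 of 256 groups of 4 libraries examined (5.47%, where chance gives about 1 in 20), 1 library lay far from the other 3. In P10 EV, replicate 4 was the one in 6 cases: it was high for Meis2 at 130.4, Ptprz1 at 3513, Top2a at 813 and Mki67 at 861, and low for Slc7a5 at 349 and Glis3 at 10.9 CPM. P10 EV replicate 3 was high for Egln3, at 52.2 CPM against 33.2 to 36.0 CPM in its group, and low for Gm37827, at 1.40 CPM against 2.02 to 2.13 CPM. In P2, replicate 1 was high for Smad2, at 41.5 CPM, and for Mki67, at 899 CPM against 117 to 250.3 CPM in the other P2 libraries. P2 replicate 2 was high for Pcyt1b, at 33.3 CPM, for Eno1, at 1355.5 CPM, and for Hoxa5, at 0.0731 CPM from a single read, and low for Igf2bp3, at 22.1 CPM.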

How the results depend on the processing

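The 28 rises and 66 falls of P10 EV against P2 became 306 and 618 with the DESeq2 Wald test, 20 and 43 with limma-voom, 50 and 63 with limma-trend on log2(FPKM + 1), 4 and 26 with only the 8 libraries of the 2 groups, and 18 and 58 at a fold change of at least 2. DESeq2 size factors gave 27 and 66, and no filter 28 and 74. Leaving out 1 library gave 2 to 1382 rises and 5 to 1411 falls, the highest without P2 replicate 1. Without the 4 libraries with liver transcripts, a setting chosen after seeing the data, there were 1686 rises and 1594 falls. The cause of these changes was not tested. P10 EV against P10 PBS gave 67 calls with DESeq2 and 0 in the other settings run. No direction of the 94 called genes turned in any of them, and 6 of the 94 stayed called throughout.

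The replicate block gave 19 rises and 48 falls of P10 EV against P2 and 0 calls against P10 PBS. It kept 45 of the 94 genes, and among genes chosen by the naming rule it changed only the calls given above. Genes of few reads, such as Hoxa5, Magel2 and Bst2, are limited by depth.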

Other observations

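Libraries of the vesicle-treated cultures were the most alike. The median SD of log2 CPM over the genes tested was 0.216 in P10 EV, 0.255 in P10 PBS and 0.372 in P2. The 66 falls in P10 EV against P2 included 9 genes each on chromosomes 7 and 8 and 6 on chromosome 19, which is 0.759%, 1.13% and 1.22% of the genes tested there, beside 0.411% over all. P10 EV replicate 4 differed slightly by chromosome in the median deviation of log2 CPM from the P2 mean. The highest values were 0.20 on chromosome 1, 0.19 on chromosome 13, 0.18 on chromosome 3 and 0.16 on chromosome X. The lowest were -0.14 on chromosome 7 and -0.12 on chromosome 19. On chromosome 13, P10 PBS replicates 3 and 4 were also raised, at 0.13 and 0.15.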
